A study of Bos taurus with 45 samples.

Results

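The ruminal papillae of the same 15 heifers were compared between a diet without grain (0% grain) and the final diet of a stepwise transition (89% grain), each heifer serving as her own control. This comparison used 30 of the 45 samples of the series, 1 per heifer and diet. Of 24616 genes listed for every sample, 11397 were tested, which were those with RPM > 1 (reads on a gene per 1000000 reads on all genes) in all 15 heifers on at least 1 of both diets. The remaining 13219 genes passed on neither diet. In all, 10929 genes passed on both diets, 115 passed on 0% grain only and 353 passed on 89% grain only. Labels give 3% and 92% grain for these diets where the study's text gives 0% and 89%, and the latter are used.

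The animals were Angus-Hereford cross-bred yearling heifers on the grain transition treatment of the study, and none of them was kept on the first diet. Papillae were biopsied from the ventral sac of the rumen on day 3, in the 0% grain period (days 1 to 4), and again on day 26, in the 89% grain period (days 21 to 29). All heifers received the diets in this order, with intermediate diets between them, so diet, time and the effect of a repeated biopsy cannot be told apart. An intermediate biopsy on day 15, on 72% grain, is given beside some of the values below. Since a biopsy mixes cell types, fewer cells of a type and less RNA per cell cannot be told apart.

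Ruminal papillae are finger-like folds of the rumen wall covered by a stratified squamous epithelium, whose outer layers cornify and whose inner layers divide. Across this epithelium the animal takes up the short-chain fatty acids that rumen microbes produce, and the epithelium also metabolizes part of them to ketone bodies. Grain brings starch, which microbes ferment faster than forage fibre, and ruminal pH commonly falls on such diets. The question of the comparison was which genes of the papillae differ once the whole dietary change has been made.

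Sequencing depth was similar on both diets. Reads on genes, as recovered from RPM, are given in units of 1000000 reads (M). They were 30.7 ± 3.41 M (SD, n = 15) on 0% grain, from 24.6 to 36.7 M. On 89% grain they were 31.4 ± 3.18 M, from 25.4 to 37.1 M, so RPM 1 stood for at least 24.6 recovered reads. Both means exceed the mean number of reads per sample that the study reports, and the sources used here do not explain this. The most abundant gene of each sample held 9.49% ± 1.74 of the reads on 0% grain and 8.20% ± 1.62 on 89% grain. This top share was lower on 89% grain in 11 heifers. Because RPM values of a sample sum to 1000000, a lower share of the most abundant genes raises the RPM of the others. Scaling factors by TMM (trimmed mean of M-values), which correct for such shifts in composition, were higher on 89% grain in 11 heifers, with a median of 0.983 on 0% grain and 1.03 on 89% grain. By the root mean square difference in log2(RPM + 1) from the median profile of their diet, the samples farthest out were the 0% grain samples of heifer 172 (0.502) and heifer 170 (0.444) and the 89% grain sample of heifer 286 (0.463), which also had the lowest TMM factor, 0.852. The labelled tissue was not checked against marker genes, since the files give genes by Ensembl ID and no ID could be matched to a symbol in the reference table.

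On RPM as deposited, far more genes were higher than lower on 89% grain. At a threshold of 0.05 for the limma adjusted p and 1.5 for the fold change, 204 genes were higher, which was 1.79% of the genes tested, and 42 genes were lower, which was 0.369%, together 246 genes or 2.16%. Without a minimum fold change, 1925 genes (16.9%) were higher and 426 genes (3.74%) were lower, together 2351 genes (20.6%). The median log2 fold change of all genes tested was 0.06. Higher genes thus made up 81.9% of those passing the adjusted p.

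This imbalance depended on the scaling of the libraries. After TMM scaling 1394 genes were higher and 1063 lower, so that 56.7% were higher, and after median-of-ratios scaling 1366 were higher and 1111 lower (55.1%). On the whole reads recovered from RPM, edgeR gave 1377 higher and 1054 lower genes (56.6%) and DESeq2 gave 1542 and 1332 (53.7%). Most genes called on RPM with a fold over 1.5 also passed under the other scalings. TMM scaling left 146 higher genes, all of them among the 204, and gave 55 lower genes that included all 42. In edgeR 183 of the 204 higher genes and in DESeq2 184 of them passed, with all 42 lower genes in both, among totals of 245 and 91 genes in edgeR and 248 and 99 genes in DESeq2.

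**Figure D1:**
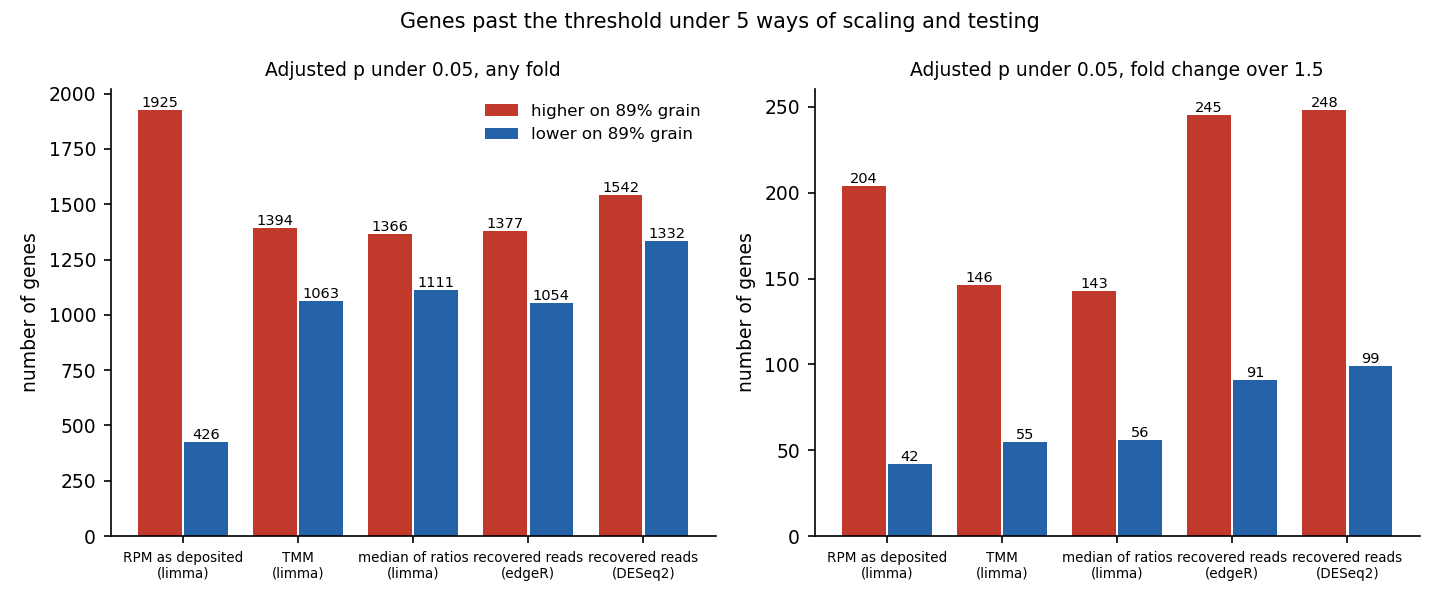
Number of genes past the threshold on 89% against 0% grain (vertical axis) under 5 ways of scaling and testing, with higher genes in red and lower genes in blue. The left panel counts adjusted p under 0.05 at any fold, where the lower genes go from 426 on RPM to 1332 in DESeq2. The right panel adds the minimum fold of 1.5, where higher genes outnumber lower genes under each of the 5.

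The changes were mostly small on the log2(RPM + 1) scale, which understates the change of weakly expressed genes. Among the 204 higher genes the median log2 fold change was 0.71, a fold of 1.64, and 15 genes exceeded a fold of 2. Among the 42 lower genes the median was -0.70, a fold of 0.615, and 8 genes fell by a fold of more than 2 on that scale. The higher genes without a minimum fold had a median of 0.32 (fold 1.25) and the lower genes a median of -0.29 (fold 0.815).

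The share of genes with large increases was highest among weakly expressed genes. Of 1694 genes with a mean under 5 RPM over both diets, 66 (3.90%) were higher by more than 1.5-fold, against 83 (2.24%) of 3708 genes between 5 and 20 RPM. The share was 0.996% of the 4516 genes between 20 and 100 RPM and 0.676% of the 1479 genes over 100 RPM. Without a minimum fold the share of higher genes varied less, from 15.5% to 18.6% over these classes. The detection criterion favours genes that are higher on the diet through which they pass. Of the 204 higher genes 60 had passed RPM > 1 in all heifers only on 89% grain, and none only on 0% grain, whereas 5 of the 42 lower genes had passed only on 0% grain. When RPM > 1 was required on both diets, 144 higher and 37 lower genes remained.

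**Figure D2:**
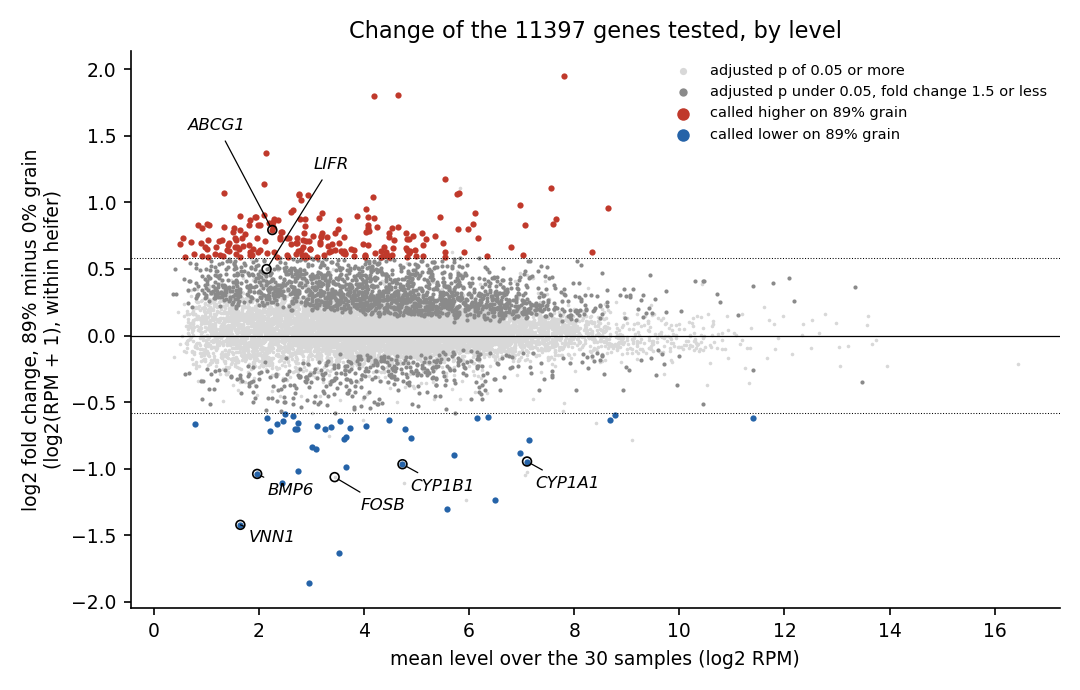
Log2 fold change on log2(RPM + 1), 89% minus 0% grain (vertical axis), against mean level in log2 RPM (horizontal axis), with 1 point per gene tested. Red points are the 204 higher and blue points the 42 lower genes, dotted lines mark a fold of 1.5, and circles mark named genes. Most red points lie at low levels.

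The called genes were a small part of the RNA. The 204 higher genes together held 3367 ± 358, 5801 ± 796 and 6085 ± 771 RPM (SD, n = 15) on 0%, 72% and 89% grain, and this sum was higher on 89% than on 0% grain in 15 of 15 heifers. The 42 lower genes held 5793 ± 2067, 5031 ± 1412 and 3482 ± 815 RPM, and their sum was lower on 89% grain in every heifer. These sums describe genes chosen for their difference between 0% and 89% grain and were not tested. The intermediate biopsy had no part in that choice. Its mean log2 level lay on the same side of 0% grain for all 204 higher genes, between both diets for 160 of them and beyond the 89% level for 44. For the lower genes it lay on the same side for 41 of 42, with 38 between both diets. The median difference between 72% and 0% grain was 0.49 on the log2 scale for the higher and -0.43 for the lower genes. Over all 11397 genes tested, 9256 lay on the same side and 4407 between both diets. Since both differences use the same 0% grain samples, these values are given without a test.

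The heifers did not respond alike. The difference of each heifer across the 11397 genes correlated between heifers with a median r of 0.220 over 105 pairs of heifers, from -0.161 to 0.713. In all 15 heifers 164 genes (1.44%) were higher on 89% grain and 20 genes (0.175%) were lower. Among the 204 higher genes 56 moved the same way in all 15 heifers, 126 in at least 14, and each in at least 10. Of the 42 lower genes 6 moved the same way in all heifers, 12 in at least 14, and each in at least 9.

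To see each heifer apart from the calls she contributed to, genes were called in the other 14 heifers and looked up in the one left out. Between 63.1% (heifer 170) and 98.5% (heifer 192) of the genes called higher elsewhere were also higher in the heifer left out, with a median of 89.9%. The share of all tested genes that were higher ran from 25.2% (heifer 286) to 73.5% (heifer 192), and 11 heifers had most tested genes higher. The excess was smallest in heifer 170, with 63.1% of the called genes against 60.4% of all genes. Heifer 286 had 79.9% of the called genes higher although only 25.2% of all her genes were. The genes called lower elsewhere were lower in 49.1% (heifer 262) to 97.1% (heifer 314) of cases, with a median of 71.7%. The called share exceeded the share of all genes in 15 of 15 heifers in both directions. The median log2 difference of genes called higher elsewhere ranged from 0.16 in heifer 170 to 1.10 in heifer 172, and that of genes called lower elsewhere from 0.03 in heifer 262 to -1.22 in heifer 286.

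**Figure D3:**
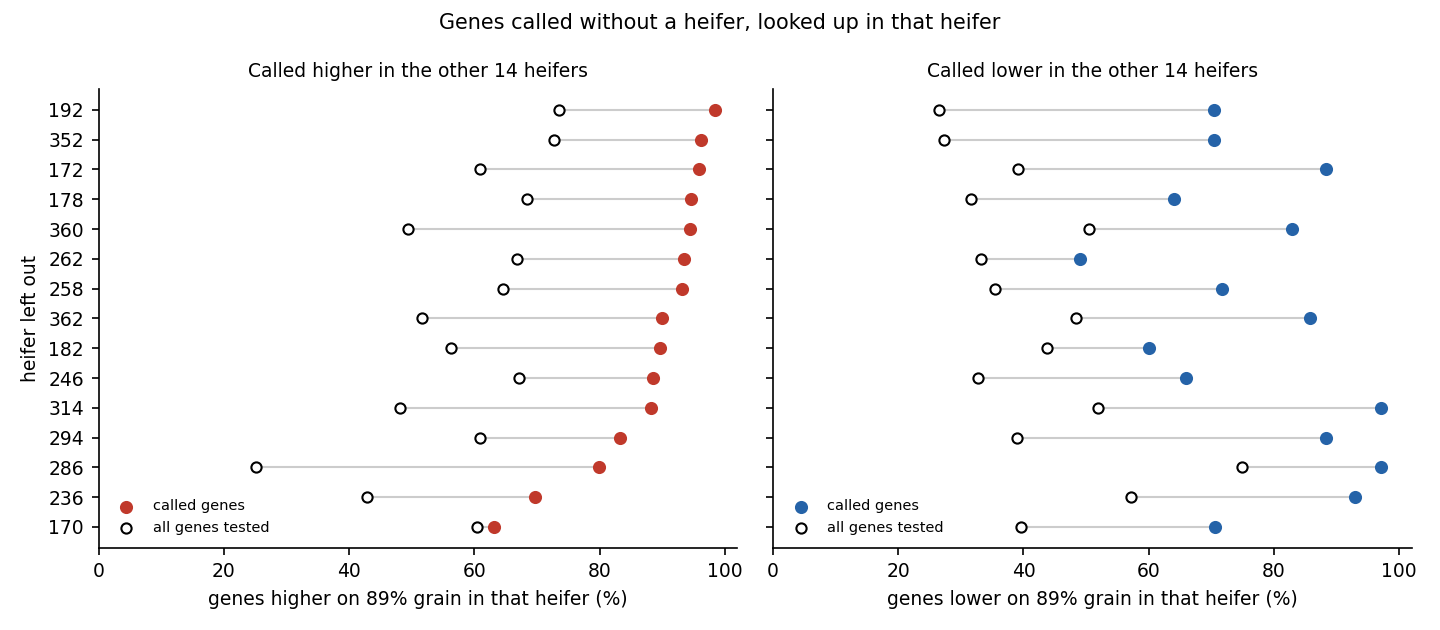
For each heifer (rows), the percentage of genes called in the other 14 heifers that moved the same way in her (filled points), beside the percentage of all tested genes that did so (open points). The left panel shows genes called higher and the right panel genes called lower on 89% grain. Filled points lie right of open points in every row, with the smallest gap for heifer 170 on the left.

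Of the gene IDs, 18 carried a name or description from the study, 13 in its list of diet-dependent genes and 5 assigned by direction and size in its lists of genes that differ between 89% and 72% grain. The study chose all of them on these samples, so their directions are not independent evidence. Of the 18 genes 13 were tested and 5 passed RPM > 1 in all heifers on neither diet. By the threshold of adjusted p and fold, 4 of the 13 were lower (VNN1, BMP6, CYP1A1 and CYP1B1) and 2 were higher (ABCG1 and an uncharacterized gene). LIFR passed the adjusted p with a fold under 1.5, and the other 6 did not pass. Of all genes tested 0.369% were lower and 1.79% were higher by this threshold, but a list chosen for diet differences is not comparable with that background.

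CYP1A1 (ENSBTAG00000001021) and CYP1B1 (ENSBTAG00000010531), cytochrome P450 enzymes that oxidize polycyclic aromatic compounds and are induced through the aryl hydrocarbon receptor, were both lower on 89% grain. Both names were assigned as described above, and both genes had passed detection on both diets. CYP1A1 ranged from 54.4 to 422.8 RPM on 0% grain with a median of 183.7, and from 37.8 to 254.1 RPM on 89% grain with a median of 79.1. Its values overlapped widely, with 3 samples on 0% grain above every sample on 89% grain. Mean RPM was 180.7 ± 95.5 (SD, n = 15) and 94.2 ± 58.2, the log2 fold change was -0.95 (SE 0.28, limma adjusted p = 0.0211), and 11 of 15 heifers were lower. Without an expression filter, over more genes, its limma adjusted p was 0.0507. CYP1B1 ranged from 14.2 to 94.1 RPM on 0% grain with a median of 33.2, and from 5.82 to 33.3 RPM on 89% grain with a median of 15.6. Of its samples on 0% grain 7 lay above every sample on 89% grain. Mean RPM fell from 36.1 ± 21.0 to 17.1 ± 7.46, with a log2 fold change of -0.97 (SE 0.21, limma adjusted p = 0.00388), in 13 of 15 heifers.

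The P450 genes were compared heifer by heifer, without a test. Both were lower in 10 heifers and both higher in 1 (heifer 172), while CYP1A1 was higher with CYP1B1 lower in 3 and the reverse held in 1. Heifer 170 had the highest level of both on 0% grain, 422.8 RPM of CYP1A1 and 94.1 RPM of CYP1B1, against 37.8 and 13.8 RPM on 89% grain. On 72% grain the means were 96.7 ± 44.1 RPM for CYP1A1 and 16.1 ± 11.1 RPM for CYP1B1. Neither gene passed between 89% and 72% grain over all heifers (limma adjusted p = 0.736 and 0.708). Over that step the study reported both as higher in heifers whose ruminal pH rose and lower in heifers whose pH fell. A test over all heifers averages such opposite changes, so it does not show that the genes stayed level in each heifer.

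VNN1 (ENSBTAG00000015094) encodes vanin 1, a pantetheinase that releases cysteamine and pantothenate. Its levels ran from 1.32 to 13.7 RPM on 0% grain (median 4.39) and from 0.419 to 2.96 RPM on 89% grain (median 0.984). On 89% grain 8 heifers were at or below RPM 1 and 10 samples lay below every sample on 0% grain. The log2 fold change was -1.42 (SE 0.19, limma adjusted p = 9.63e-05), and 14 of 15 heifers were lower. Heifer 360 was the exception, with 1.32 RPM on 0% grain, the lowest of that diet, and 1.45 RPM on 89% grain. The step from 72% (2.28 ± 1.67 RPM) to 89% grain (1.09 ± 0.677 RPM) did not pass the test (log2 difference -0.57, limma adjusted p = 0.0918).

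Among signalling genes, BMP6 (ENSBTAG00000019234), a secreted ligand of the BMP and TGF-beta family, was lower on 89% grain. It ranged from 1.45 to 15.7 RPM on 0% grain (median 4.81) and from 0.590 to 3.16 RPM on 89% grain (median 1.97), with 11 samples on 0% grain above every sample on 89% grain. The spread shrank with the level, from 5.87 ± 4.13 to 1.97 ± 0.775 RPM. The log2 fold change was -1.04 (SE 0.22, limma adjusted p = 0.00306), lower in 13 of 15 heifers, and heifers 170 and 352 were higher. BMP6 and VNN1 were both lower in 12 heifers. Both genes had entered the test through 0% grain only, a criterion that favours a fall.

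LIFR (ENSBTAG00000010423), the receptor subunit for leukemia inhibitory factor, was higher in 12 of 15 heifers. Its levels ran from 0.459 to 6.26 RPM on 0% grain (median 3.34) and from 1.69 to 9.11 RPM on 89% grain (median 4.76), and 5 samples on 89% grain lay above every sample on 0% grain. The log2 fold change was 0.50 (SE 0.16, limma adjusted p = 0.0336). Its adjusted p was under 0.05 in 15 of 27 alternatives, and ran from 0.0155 to 0.0862 over all of them. The adjusted p was above 0.05 without the heifer block (0.0862), after TMM (0.0504) or median-of-ratios scaling (0.0515), and without an expression filter (0.0722). It was also above 0.05 in edgeR (0.0719) and without heifers 172 and 286 together (0.0755). The same held when heifer 170 (0.0575), 172 (0.0631), 182 (0.0611), 258 (0.0595), 294 (0.0525) or 352 (0.0687) was left out.

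FOSB (ENSBTAG00000008182), a subunit of the AP-1 transcription factor that cells induce rapidly after stimulation, split the heifers. In 12 heifers it was lower on 89% grain, where they held at most 4.73 RPM. In heifers 314, 262 and 178 it was higher, at 66.0 against 15.5, 42.8 against 1.65 and 31.9 against 6.11 RPM. Those 3 samples lay far above the other 12 of that diet, and the median over all 15 heifers was 1.68 RPM on 89% grain against 8.86 RPM on 0% grain. The log2 fold change of -1.06 (SE 0.51) did not pass the test (limma adjusted p = 0.153). It did pass without heifer 262 (log2 fold change -1.43, limma adjusted p = 0.0274) and in DESeq2 on the recovered reads (-1.85, adjusted p = 0.00487). However, FOSB had entered the test through 0% grain only, a criterion that favours a fall. Its mean RPM over all heifers was nearly equal on both diets. RASL11A (ENSBTAG00000005244, written RASL1A in the study), a small GTPase of the Ras superfamily, gave a log2 fold change of 0.03 (SE 0.22), with 6 heifers higher and 9 lower, and its sign changed with TMM scaling (-0.01).

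ABCG1 (ENSBTAG00000021272), a transporter that exports cholesterol from cells to lipoproteins, was higher on 89% grain. It ranged from 0.856 to 7.31 RPM on 0% grain (median 2.88) and from 1.77 to 13.6 RPM on 89% grain (median 5.61). The groups overlapped, with 5 samples on 89% grain above every sample on 0% grain. The log2 fold change was 0.79 (SE 0.19, limma adjusted p = 0.00719), higher in 13 of 15 heifers. Heifers 170 and 258 were lower, at 7.31 and 3.52 RPM on 0% grain and 3.68 and 2.48 RPM on 89% grain. The difference between 72% grain (5.34 ± 2.78 RPM) and 89% grain (6.38 ± 3.74 RPM) did not pass the test (log2 difference 0.24, limma adjusted p = 0.464).

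The uncharacterized ENSBTAG00000009144 was the gene of the study's list with the most uniform direction, higher in 15 of 15 heifers. Its level spread widely over the heifers, from 0.0987 to 16.4 RPM on 0% grain (median 3.39) and from 1.40 to 23.2 RPM on 89% grain (median 8.62). Paired by heifer, the log2 fold change was 0.87 (SE 0.14, limma adjusted p = 5.20e-04). Without the heifer block the adjusted p was 0.125. ABCG1, LIFR and this gene had entered the test through 89% grain only, a criterion that favours a rise.

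BOLA-A did not pass the test, and C-X-C motif chemokine 6 was not tested. BOLA-A (ENSBTAG00000005182), a class I histocompatibility molecule, averaged 9.11 ± 3.64 RPM without grain and 8.21 ± 3.40 RPM on the 89% diet, with a log2 fold change of -0.15 (SE 0.08, limma adjusted p = 0.226) and 10 heifers lower. Reads of this gene may be shared with near-identical class I genes. C-X-C motif chemokine 6 (ENSBTAG00000009812), which attracts neutrophils, was at or below RPM 1 in 3 heifers on 0% grain and in 4 on 89% grain. Its medians were 2.03 and 2.41 RPM, and in a fit without an expression filter its log2 fold change was -0.21 (SE 0.37, limma adjusted p = 0.760).

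LOXL2 and CTGF, both of the extracellular matrix, were likewise not tested, as each was at or below RPM 1 in at least 1 heifer on each diet. LOXL2 (ENSBTAG00000006214), an enzyme that crosslinks collagen, ran from 0.809 to 5.72 RPM without grain (median 1.94) and from 0.984 to 7.60 RPM on 89% grain (median 3.23), with a median of 4.74 RPM at 72% grain, and 13 of 15 heifers had more on 89% than on 0% grain. In the fit without a filter its log2 fold change was 0.50 (SE 0.19, limma adjusted p = 0.0957). It entered the test in 3 alternatives, with a limma adjusted p of 0.00358 without heifer 236, 0.0929 without heifer 170 and 0.0503 where only the mean RPM had to exceed 1. Heifer 236 had the largest fall of LOXL2 (log2 difference -1.41). Without her the gene entered through 89% grain only, a criterion that favours a rise. CTGF (ENSBTAG00000006367), a matricellular protein induced by TGF-beta, had medians of 2.64 and 4.76 RPM, with a log2 fold change of 0.47 (SE 0.28, limma adjusted p = 0.335) and 11 heifers higher.

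Levels of CDSN and KLK10 varied widely between heifers. CDSN (ENSBTAG00000021721, name assigned), corneodesmosin of the cornified layer, ranged from 0.421 to 84.3 RPM on 0% grain (median 6.10) and from 0.258 to 145.5 RPM on 89% grain (median 14.3), and 10 heifers were higher. Without a filter its log2 fold change was 0.96 (SE 0.44, limma adjusted p = 0.184). KLK10 (ENSBTAG00000015129, name assigned), a kallikrein-related protease gene, had a lower mean on 89% grain, 8.97 ± 6.95 against 14.8 ± 27.1 RPM, but a higher median, 8.05 against 1.71 RPM. Its log2 fold change was 0.65 (SE 0.54, limma adjusted p = 0.426), with 10 heifers higher. The highest KLK10 levels on 0% grain were 89.3, 61.0 and 41.0 RPM, in heifers 172, 170 and 294. KLK10 had entered the test through 89% grain only, a criterion that favours a rise. CDHR2 (ENSBTAG00000025340), a protocadherin that links microvilli, had 5.70 ± 3.27 and 5.82 ± 3.31 RPM, with 8 heifers higher (log2 fold change 0.07, SE 0.20, limma adjusted p = 0.833).

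The last 2 named genes gave no call. CHAC1 (ENSBTAG00000010371, name assigned), which degrades glutathione and is induced in the unfolded protein response, averaged 3.39 ± 4.25 RPM without grain and 5.52 ± 5.44 RPM on the 89% diet (log2 fold change 0.51, SE 0.35, limma adjusted p = 0.415 without a filter), with 9 heifers higher. CXorf57 (ENSBTAG00000003668) had 8.43 ± 5.75 and 9.33 ± 5.07 RPM (log2 fold change 0.20, SE 0.18, limma adjusted p = 0.479), with 10 heifers higher.

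**Figure D4:**
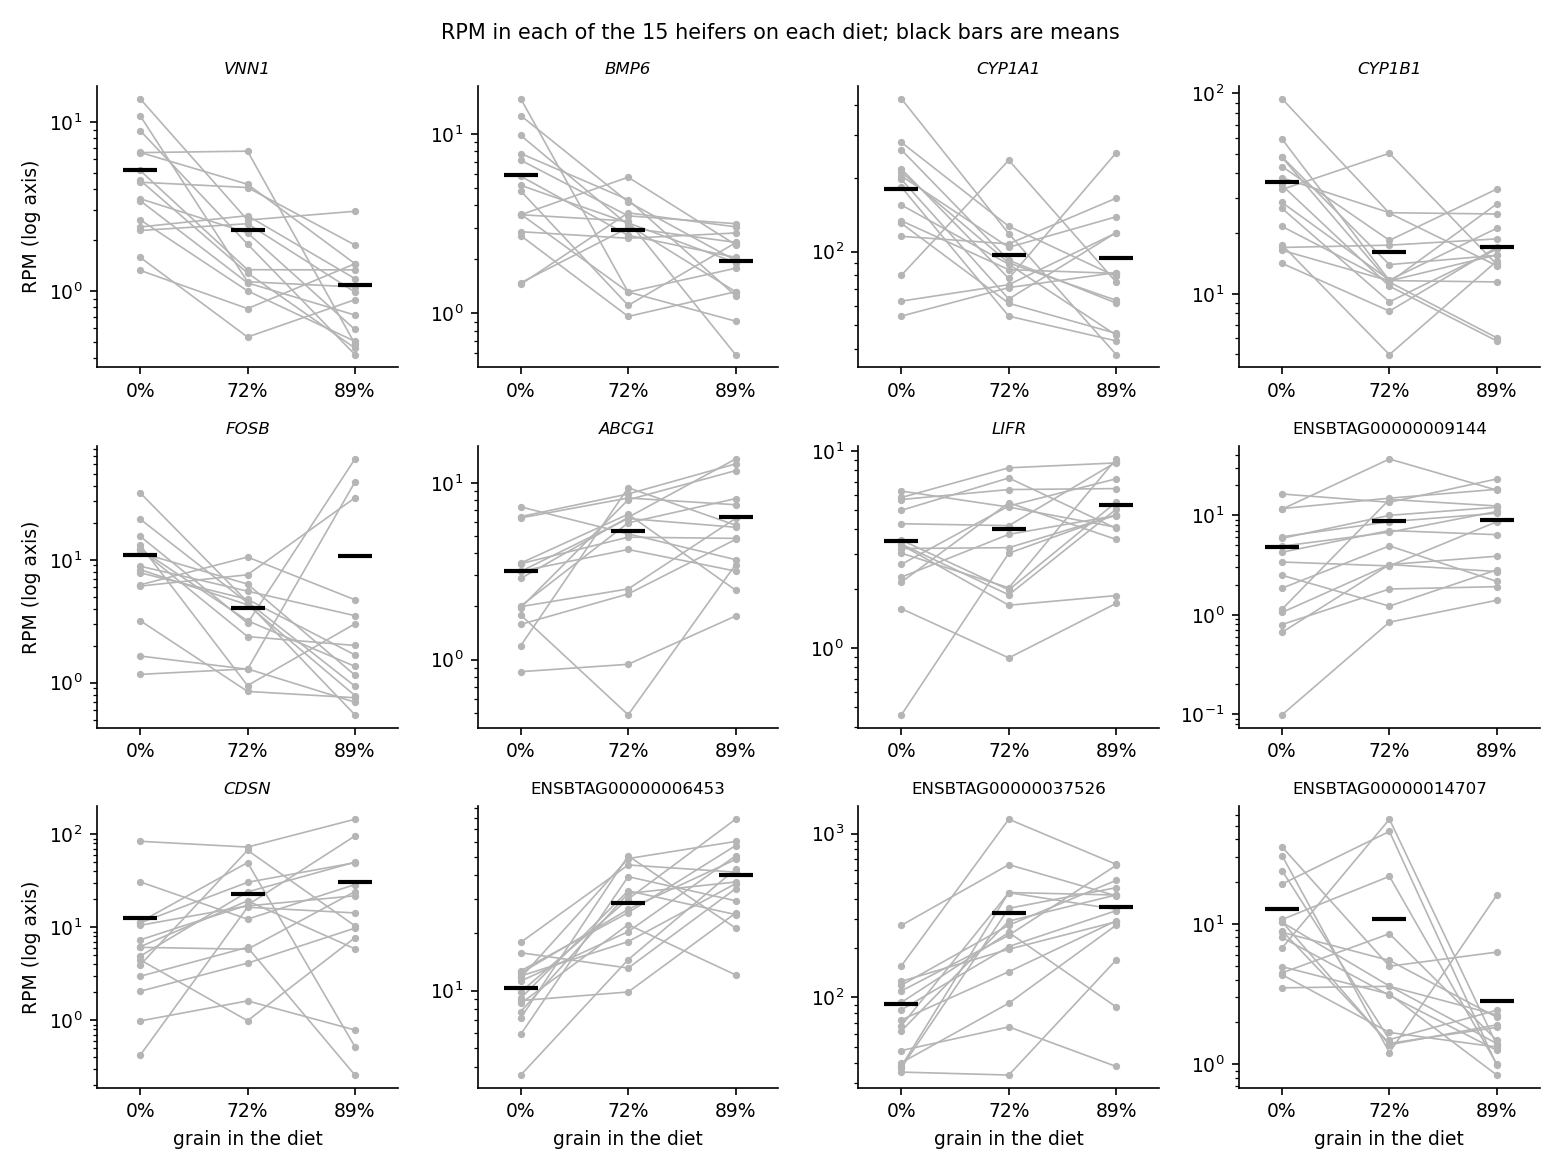
RPM on a log axis (vertical) of 12 genes on 0%, 72% and 89% grain (horizontal), with 1 line per heifer and black bars for the mean of the 15 heifers. VNN1, BMP6, CYP1A1 and CYP1B1 are lower on 89% than on 0% grain in most lines. FOSB is higher on 89% than on 0% grain in 3 lines, and ENSBTAG00000006453 rises from 0% to 89% grain in each line.

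The largest differences on this scale, log2(RPM + 1), belonged to genes without a name in the sources used here. ENSBTAG00000037526 had the largest increase, with means of 90.8 ± 63.0, 326 ± 295 and 358 ± 177 RPM on 0%, 72% and 89% grain (log2 fold change 1.95, SE 0.26, limma adjusted p = 9.80e-05). Its levels ran from 35.0 to 275 RPM on 0% grain and from 37.8 to 649 RPM on 89% grain, and 12 samples on 89% grain exceeded every sample on 0% grain. It was higher in 13 of 15 heifers. ENSBTAG00000006453 rose in all 15 heifers, from a median of 9.84 RPM (3.63 to 17.9) to a median of 36.9 RPM (12.1 to 78.4). Of its samples on 89% grain 14 lay above every sample on 0% grain, with a log2 fold change of 1.81 (SE 0.16, limma adjusted p = 5.01e-06).

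On the log2(RPM + 1) scale the largest falls were those of ENSBTAG00000014707 and ENSBTAG00000039861, each lower in 15 of 15 heifers. With a pseudocount of 0.1, VNN1 (-2.05) fell by more than ENSBTAG00000039861 (-1.84), as it did in edgeR (-2.20 against -1.92) and DESeq2 (-2.22 against -1.92). ENSBTAG00000014707 went from a median of 8.92 RPM (3.50 to 35.3) on 0% grain to 1.48 RPM (0.839 to 16.0) on 89% grain, and 13 samples on 89% grain lay below every sample on 0% grain. The log2 fold change was -1.85 (SE 0.17, limma adjusted p = 5.65e-06), but this gene had entered the test through 0% grain only, a criterion that favours a fall. ENSBTAG00000039861 went from a median of 14.9 RPM (4.95 to 40.8) to 3.46 RPM (1.94 to 19.5), with 11 samples below every sample on 0% grain and a log2 fold change of -1.63 (SE 0.20, limma adjusted p = 7.00e-05). On 72% grain both genes were split between heifers, from 1.21 to 55.6 RPM for the first and from 1.43 to 67.2 RPM for the second, and neither passed between 89% and 72% grain (limma adjusted p = 0.243 and 0.232).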

How the data were processed

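RNA from ruminal papillae was sequenced as paired ends after poly(A) selection. Per the study's methods and the submitters' processing notes, the authors demultiplexed reads with CASAVA 1.8, aligned them to the bovine genome with TopHat2 2.0.10, counted reads per Ensembl gene with HTSeq, and deposited RPM for each sample, by their methods relative to the mapped reads of the library. The strand setting and the lane of each sample are not given in the sources used here. Each lane is stated to hold samples of all diets. Reads of overlapping genes on opposite strands may not be told apart.

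In the files the RPM of a sample added up to 1000000 over genes, so the reads on genes formed the total. As 100% of values were whole reads to within 0.01 of a read, reads and depth were recovered from them. The recovered depth exceeds, on average, the reads per sample that the study reports. The main test was limma (version 3.58.1, R 4.3.3) with the heifer as a block, on values of log2(RPM + 1), a trend of variance over the mean, and Benjamini-Hochberg adjustment over 11397 genes. Fold changes are on that scale, which understates the change of low genes. Genes were called at an adjusted p below 0.05 with a fold change of more than 1.5. The fit was tested on simulated data with equal numbers of genes raised and lowered, which does not bear on the imbalance that depended on scaling. All replicates are separate animals, and the pairing comes from the heifer numbers in the labels. Across genes, deviations from the diet means correlated with a median r of 0.273 between both samples of a heifer (15 pairs) and -0.019 between different heifers (210 pairs). Alternatives were the fit without the block, pseudocounts of 0.1 and 0.5, TMM and median-of-ratios scaling, other filters, no variance trend, all 45 samples in one fit, edgeR 4.0.16 and DESeq2 1.42.0 on recovered reads, and each heifer left out. The fit without heifers 172 and 286, the filter on both diets, and the comparison of 89% with 72% grain were added after the data were seen. Plots used matplotlib 3.10.9.

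The genes and lists were chosen with earlier results of these data known. The 31 pathway lists and 12 marker lists were set by symbol and could not be applied, because 0 IDs matched the reference table. Genes were named from the study's list, from its text and lists (5 assigned), and as up to 2 unnamed genes per direction with the largest change. The control heifers of the study were not analysed here.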

Additional observations from a re-analysis of the deposited data

How the results depend on the processing

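Over 28 alternatives, the count of genes higher on 89% grain by more than 1.5-fold stayed within 1.5 times of 204 in 27, and was 319 with a pseudocount of 0.1. The count of lower genes stayed within 1.5 times of 42 in 26, and was 91 in edgeR and 99 in DESeq2. Without a minimum fold the higher genes stayed within 1.5 times of 1925 in all 28. The lower genes did so in 23 and numbered 1063 after TMM scaling, 1111 after median-of-ratios scaling, 1054 in edgeR, 1332 in DESeq2 and 281 without heifers 172 and 286. The cause was not tested beyond the change of scaling or samples itself. Leaving out each heifer gave 167 to 239 higher and 34 to 55 lower genes over 1.5-fold, and 1548 to 2557 higher and 287 to 441 lower genes at any fold. Without the heifer as a replicate block, 201 higher and 33 lower genes were called, all of them among those called with the block. Without the block 2 named genes, LIFR and ENSBTAG00000009144, no longer had an adjusted p under 0.05, as given above.

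Among the genes named in the text, RASL11A and CDHR2 changed sign. RASL11A gave -0.013 after TMM scaling, -0.016 after median-of-ratios scaling and -0.0038 in edgeR, and -0.13 to 0.17 when each heifer was left out. CDHR2 gave -0.026 to 0.18 when each heifer was left out. VNN1, BMP6, CYP1B1 and ABCG1 kept their direction and an adjusted p under 0.05 in every alternative that tested them. These were 28 for CYP1B1 and 27 for each of the others. The filter on both diets left VNN1, BMP6 and ABCG1 untested, since each had passed detection on 1 diet only. Alternatives for the gene lists were not run, since the lists could not be matched. The recovered depth gives 24.6 reads or more at RPM 1.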
